A study of Homo sapiens with 4 samples.

Results

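The genes described here are 48 regulators and enzymes of DNA replication and the cell cycle, of 17041 genes in the expression table. They were taken by gene ID from a list chosen by function, with earlier results of these data known. It holds 27 genes whose products act or peak at G1/S (the passage from growth into DNA synthesis) and 21 of G2/M (the passage into and through mitosis). All 48 were in the expression table, and 3 of them had events in the splicing table. RNA came from A549, an established human lung adenocarcinoma cell line, in 4 libraries. The 2 knockdown (KD) libraries came from cells transduced with a lentivirus that carried 1 shRNA against RBM10, on wells coated with Retronectin, and kept in puromycin at 1 µg/mL for 10 to 14 days as a stable population. The 2 wild-type (WT) libraries came from A549 cells labelled RBM10 wild type. Whether WT cells were also transduced or grown in puromycin is not in the labels, so less RBM10 and the transduction or selection itself cannot be told apart. All 4 libraries share 1 batch label, poly-A selection, a stranded TruSeq kit and paired reads of 100 bp, per the labels. The comparison asks how expression and splicing of these genes differ in cells with less RBM10, a splicing regulator that binds RNA.

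In G1, origins of replication are licensed when the origin recognition complex, CDC6 and CDT1 load the ring-shaped MCM helicase onto DNA. Cyclin-dependent kinases (CDKs) then fire these origins, CDC45 and the GINS complex join the ring to form the moving helicase, and cyclin B with CDK1 later drives the cell into mitosis. E2F transcription factors are best known for inducing the G1/S genes, and the MuvB complex, through B-MYB, FOXM1 and a promoter element called CHR, for inducing the G2/M genes.

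RBM10 mRNA was at 11.6 and 10.9 RPKM in KD replicates 1 and 2, against 35.5 and 40.8 RPKM in WT replicates 1 and 2. RPKM are read numbers scaled by the length of the gene and the size of the library, a unit inferred here from the values. The KD mean was thus 29.5% of the WT mean, in the direction of the labels (log2 change -1.67, SE 0.11; limma, adjusted p = 1.01e-05). Relative to WT replicate 2, depth was 84.5% and 95.6% in KD replicates 1 and 2 and 99.0% in WT replicate 1. The KD libraries held 9967 and 10113 genes at 1 RPKM or above, and the WT libraries 9629 and 9502. Of 12 markers of A549 and lung epithelium, 9 were in the table, and their summed level was 5989 and 6050 RPKM in KD and 5404 and 5647 RPKM in WT. Both KD libraries lay above both WT libraries in 8 of them, among them KRT8 (689 and 666 RPKM in KD, 325 and 370 RPKM in WT) and CDH1 (3.23 and 3.40 RPKM in KD, 3.17 and 2.78 RPKM in WT), and below in AKR1B10 (1309 and 1442 RPKM in KD, 2770 and 2687 RPKM in WT). NAPSA stayed below 1 RPKM in every library, and NKX2-1, SFTPB and SFTPC are not listed in the table. Of the markers of other cells, PTPRC, CD3E and ALB are not listed, PECAM1 was at 0.0130 RPKM or less in all 4 libraries, and CD68 was at 3.49 and 3.57 RPKM in KD and 1.56 and 1.72 RPKM in WT. The part of these marker levels in the results below was not tested.

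The G1/S and G2/M genes carry different promoter words, shown here because the groups are compared below. RefSeq promoters (GRCh38.p14, 250 bases before to 50 bases after the start) were matched for 38 of the 48 genes. Those not matched were MCM4, MCM5, CCND1, CCNE2, CDK2, AURKA, TTK, BIRC5, FOXM1 and TPX2. The 250 bases before the start are printed for a pair of G1/S genes (GINS2 at chr16:85688955-85689204 and CDC25A at chr3:48188418-48188667, both minus strand) and a pair of G2/M genes (PLK1 at chr16:23678639-23678888 and CCNB2 at chr15:59104896-59105145, both plus strand). Each is written along the gene, and capitals mark the E2F, CHR and CCAAT words on either strand.
GINS2: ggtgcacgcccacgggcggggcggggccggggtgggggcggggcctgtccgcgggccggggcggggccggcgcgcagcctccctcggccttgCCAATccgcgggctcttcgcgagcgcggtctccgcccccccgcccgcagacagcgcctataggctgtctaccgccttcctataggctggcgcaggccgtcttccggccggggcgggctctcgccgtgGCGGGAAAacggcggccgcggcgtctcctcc
CDC25A: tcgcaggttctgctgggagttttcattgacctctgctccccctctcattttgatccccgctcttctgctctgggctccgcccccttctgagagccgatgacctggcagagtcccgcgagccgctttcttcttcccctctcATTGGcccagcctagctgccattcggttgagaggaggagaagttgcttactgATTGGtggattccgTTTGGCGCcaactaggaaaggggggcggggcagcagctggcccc
PLK1: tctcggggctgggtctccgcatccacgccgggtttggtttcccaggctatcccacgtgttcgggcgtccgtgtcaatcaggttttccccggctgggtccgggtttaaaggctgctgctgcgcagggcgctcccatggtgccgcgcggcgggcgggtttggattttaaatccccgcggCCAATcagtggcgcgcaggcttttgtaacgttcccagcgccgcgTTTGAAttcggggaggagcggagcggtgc
CCNB2: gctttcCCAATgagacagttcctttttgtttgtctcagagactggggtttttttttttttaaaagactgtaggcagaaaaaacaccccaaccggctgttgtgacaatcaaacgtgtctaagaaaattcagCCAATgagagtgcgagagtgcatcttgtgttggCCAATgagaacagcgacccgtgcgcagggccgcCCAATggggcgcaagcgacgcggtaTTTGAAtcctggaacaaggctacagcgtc

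In GINS2 the E2F word begins 31 bases before the start on the opposite strand, and in CDC25A it begins 44 bases before the start. In both PLK1 and CCNB2 the CHR word begins 29 bases before the start, with CCAAT words farther upstream. The words searched on both strands were TTTCCCGC, TTTGGCGC, TTTCGCGC and TTTGCCGC for E2F, TTTGAA and TTCGAA for CHR, and CCAAT. E2F words on opposite strands can overlap one another, and no word contains a word of another set.

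An E2F word was in 13 of 22 G1/S promoters (59.1%, exact 95% interval 36.4% to 79.3%) and in 1 of 16 G2/M promoters (6.25%, 0.158% to 30.2%), beside 5.78% of the promoters of all genes tested and 3.33% of all 27305 promoters. A CHR word was in 2 of 22 G1/S promoters (9.09%) and in 10 of 16 G2/M promoters (62.5%, 35.4% to 84.8%), beside 10.5% of genes tested and 16.6% of all promoters. CCAAT, the word bound by NF-Y, was in 15 of 22 G1/S promoters (68.2%) and in 13 of 16 G2/M promoters (81.2%), beside 37.2% and 35.7%. The 2 lists thus held E2F and CHR words in opposite proportions, a description of these windows, and the intervals cover counting error only. With the window limited to the bases before the start, 45.5% of the G1/S and 0% of the G2/M promoters held an E2F word, since the match in CDK1 lies after it. With the leading T of the E2F words left off, the shares were 72.7% of G1/S and 18.8% of G2/M promoters, beside 21.8% of genes tested.

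**Figure D1:**
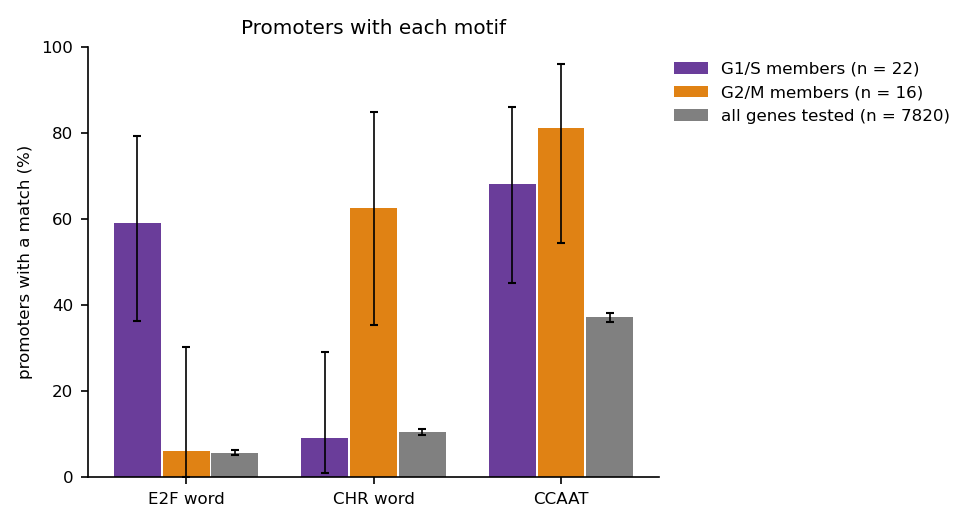
Share of promoters (percent, vertical axis) with an E2F word, a CHR word or CCAAT, for the G1/S genes (purple), the G2/M genes (orange) and all genes tested (grey), with exact 95% binomial intervals as bars. E2F words stand out in the G1/S list at 59.1% and CHR words in the G2/M list at 62.5%.

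In KD cells, 8 of the 48 genes fell and 0 rose, and the 16 with an unadjusted p under 0.05 were all lower. Tests used limma on log2(RPKM + 1) over the 10182 genes whose mean reached 1 RPKM in a group, and a gene passed at a Benjamini-Hochberg adjusted p under 0.05. Of all genes tested, 7.03% passed as lower and 15.3% as higher in KD. An unadjusted p under 0.05, in either direction, was found in 3620 of these 10182 genes. All 8 that fell are G1/S genes, 8 of 27 (29.6%): GINS2, CDC25A, CDC6, RRM2, CCNE1, CCND1, ORC1 and MCM2. Of the 21 G2/M genes, 0 passed, and 4 had an unadjusted p under 0.05, as against 12 of the G1/S genes. Whether the 2 lists differ was not tested. In bulk RNA, fewer cells in a phase of the cycle and less RNA per cell cannot be told apart. Separate cultures for the replicates are not stated, so these p-values reflect only how far these 4 libraries differ, which may be technical.

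The median log2 change was -0.20 in the G1/S list and -0.06 in the G2/M list, beside 0.02 over all genes tested. Changes were below 0 in 24 of 27 G1/S genes and 14 of 21 G2/M genes, beside 46.8% of all genes tested. Both KD libraries lay below both WT libraries in 18 G1/S genes and 8 G2/M genes, a pattern in 27.3% of all genes tested. Both lay above in 2 G1/S genes (TYMS and CDK2) and 3 G2/M genes (CDC25C, AURKB and CCNB2), a pattern in 34.3% of all genes tested. Adding 1 to the RPKM before the log makes the change of low genes look smaller than it is. The largest decrease was that of GINS2, to 55.3% of the WT mean. Of the genes with a promoter, an E2F word was in 4 of the 7 that fell and in 9 of the 15 other G1/S genes.

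**Figure D2:**
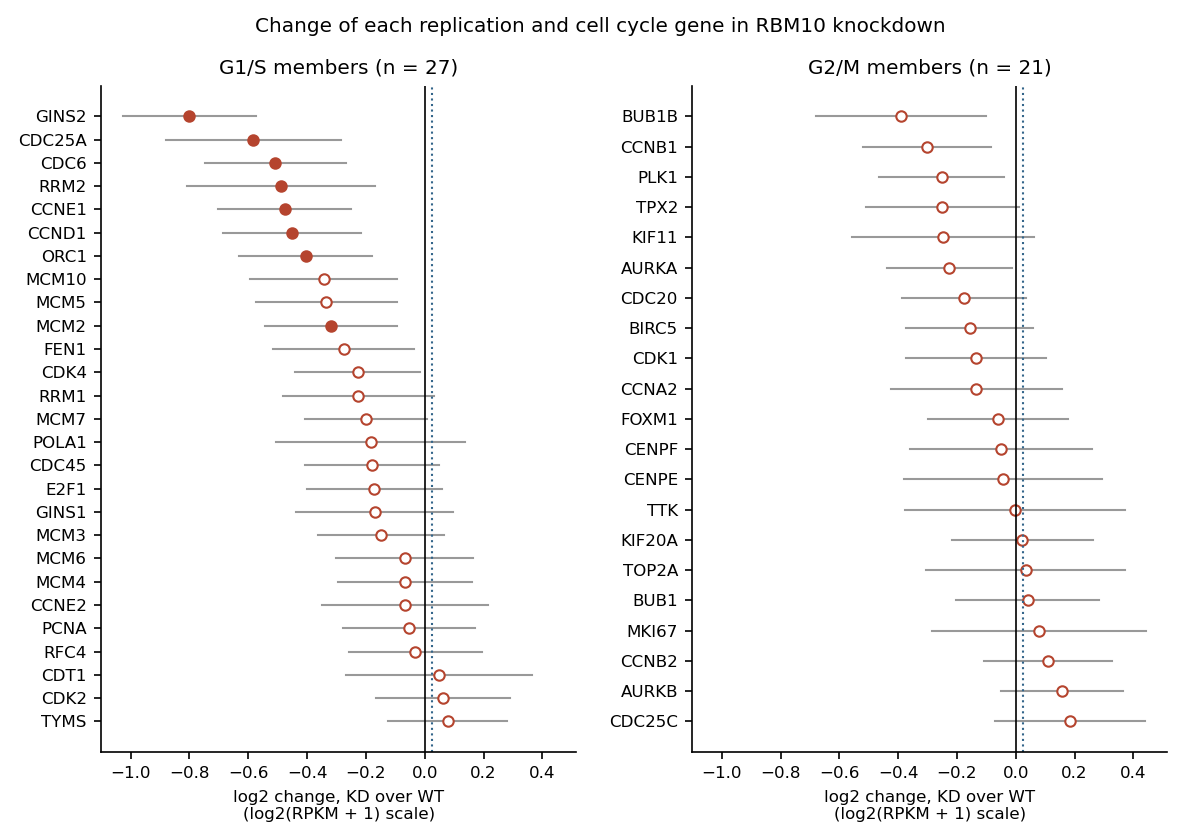
Log2 change of KD over WT on the log2(RPKM + 1) scale (horizontal axis) for each of the 27 G1/S and 21 G2/M genes, with 95% intervals as lines; filled points passed limma's adjusted test and the dotted line is the median of all genes tested, 0.02. The filled points are all in the G1/S panel and lie between -0.80 and -0.32.

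By library, the G1/S list was lower in both KD libraries and the G2/M list was not. A gene's deviation is its log2(RPKM + 1) in a library minus its mean over the 4. The median deviation of the G1/S genes was -0.09 and -0.13 in KD replicates 1 and 2, against 0.11 and 0.10 in WT replicates 1 and 2. The groups do not overlap on this measure. That of the G2/M genes was -0.10 and 0.03 in KD replicates 1 and 2, against 0.10 and -0.04 in WT replicates 1 and 2, so the groups overlapped. WT replicate 1 was above WT replicate 2 in 16 of 21 G2/M genes (76.2%), beside 56.0% of all genes tested, and KD replicate 2 was above KD replicate 1 in 13 of 21 (61.9%), beside 53.2%. TOP2A, the topoisomerase that untangles mitotic chromosomes, is an example, at 113 and 146 RPKM in KD replicates 1 and 2 and 144 and 109 RPKM in WT replicates 1 and 2. Without WT replicate 1 the G2/M median was 0.02, and without KD replicate 2 it was -0.17.

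**Figure D3:**
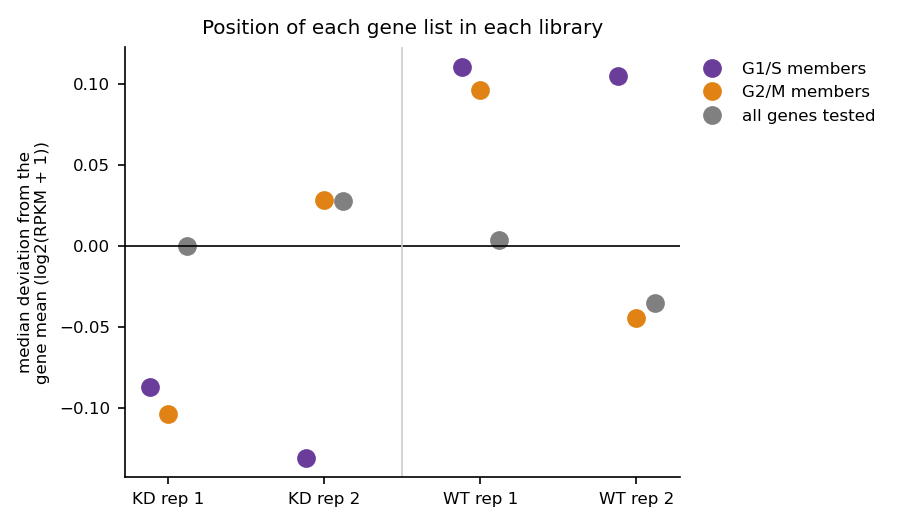
Median deviation of each list from the gene means, on the log2(RPKM + 1) scale (vertical axis), in the 2 KD and 2 WT libraries, for G1/S genes (purple), G2/M genes (orange) and all genes tested (grey). The G1/S points lie at -0.09 and -0.13 in KD and at 0.11 and 0.10 in WT, while the G2/M points of KD and WT overlap.

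Of the 3 licensing factors, ORC1 and CDC6 fell. ORC1, the largest subunit of the origin recognition complex (chr1:52372829-52404459, hg38, minus strand), was at 12.1 and 11.9 RPKM in KD and 16.0 and 16.5 RPKM in WT. Its KD mean was 74.0% of the WT mean, both KD libraries being lower (log2 change -0.40, SE 0.10; limma, adjusted p = 0.0184). CDC6, the loading ATPase that brings the MCM ring to the complex (chr17:40287633-40304657, plus strand), was at 15.2 and 16.7 RPKM in KD and 24.3 and 22.0 RPKM in WT. The groups do not overlap, and the KD mean was 69.1% of WT (log2 change -0.51, SE 0.11; limma, adjusted p = 0.00838). CDT1, the partner of CDC6 that carries the ring, did not pass, at 16.7 and 12.9 RPKM in KD and 12.8 and 15.5 RPKM in WT, with overlapping groups (log2 change 0.05, adjusted p = 0.834).

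Of the 6 subunits of the MCM ring, which unwinds DNA, MCM2 alone passed. MCM2 (chr3:127598223-127622436, plus strand) was at 26.8 and 26.3 RPKM in KD and 31.7 and 35.1 RPKM in WT. Both KD libraries were lower, with a KD mean of 79.4% of WT (log2 change -0.32, SE 0.10; limma, adjusted p = 0.0464). MCM5 lay just past the threshold, at 47.7 and 41.4 RPKM in KD and 53.7 and 59.1 RPKM in WT (log2 change -0.33, adjusted p = 0.0502), so that these 2 subunits differ in the call and hardly in size. MCM7 was at 124 and 121 RPKM in KD and 135 and 147 RPKM in WT (log2 change -0.20, adjusted p = 0.155). MCM3, MCM4 and MCM6 had log2 changes of -0.15, -0.07 and -0.07, and the groups overlapped in MCM4 and MCM6. All 6 values were below 0, with a median of -0.17.

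Among the 48 genes, the 4 that help to turn the loaded ring into a moving helicase were each lower in both KD libraries. That pattern was in 27.3% of all genes tested, and of the 4 only GINS2 passed. GINS2, a subunit of the GINS complex whose promoter is printed above (chr16:85676198-85690073, minus strand), was at 11.0 and 11.3 RPKM in KD and 19.7 and 20.5 RPKM in WT. The groups were far apart against their spread, at 11.1 ± 0.206 RPKM in KD and 20.1 ± 0.562 RPKM in WT (SD, n = 2 each). Its log2 change of -0.80 (SE 0.10, 95% interval -1.03 to -0.58) was the largest in size of the 48 genes (limma, adjusted p = 0.000499). GINS1, a subunit of the same complex, was at 3.76 and 3.56 RPKM in KD and 4.62 and 3.89 RPKM in WT (log2 change -0.17, adjusted p = 0.342). MCM10, which helps to activate the helicase, was at 5.85 and 6.38 RPKM in KD and 8.41 and 7.65 RPKM in WT (log2 change -0.34, adjusted p = 0.0540). CDC45, the third component of the moving helicase, was at 20.8 and 19.0 RPKM in KD and 23.0 and 22.3 RPKM in WT (log2 change -0.18, adjusted p = 0.235).

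At the replication fork itself, 0 of 4 genes passed. FEN1, the nuclease that trims Okazaki fragments, was at 27.9 and 25.8 RPKM in KD and 30.6 and 34.9 RPKM in WT (log2 change -0.28, adjusted p = 0.0946). POLA1, the catalytic subunit of the priming polymerase, PCNA, the sliding clamp, and RFC4, a subunit of the clamp loader, had log2 changes of -0.18, -0.05 and -0.03, with overlapping groups. PCNA was the most abundant of the 48 genes, at 217 and 205 RPKM in KD and 235 and 203 RPKM in WT.

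Of the enzymes that make deoxynucleotides, RRM2 fell. RRM2, the small subunit of ribonucleotide reductase whose level follows S phase (chr2:10120698-10131419, plus strand), was at 3.41 and 3.95 RPKM in KD and 6.45 and 4.77 RPKM in WT. The groups do not overlap, although the 2 WT libraries lie farther apart than KD replicate 2 and WT replicate 2 do (log2 change -0.49, SE 0.14; limma, adjusted p = 0.0357). RRM1, the large subunit of the same enzyme, was at 24.4 and 26.2 RPKM in KD and 32.6 and 27.1 RPKM in WT (log2 change -0.23, adjusted p = 0.189). TYMS, thymidylate synthase, was at 81.3 and 84.5 RPKM in KD and 79.0 and 77.9 RPKM in WT (log2 change 0.08, adjusted p = 0.577).

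Among the 7 regulators of the G1/S transition, CCND1, CCNE1 and CDC25A fell. CCND1, cyclin D1, the partner of CDK4 (chr11:69641087-69654474, plus strand), was at 14.4 and 15.9 RPKM in KD and 20.4 and 21.8 RPKM in WT. Both KD libraries were lower, with a KD mean of 71.9% of WT (log2 change -0.45, SE 0.10; limma, adjusted p = 0.0131). CCNE1, cyclin E1, the partner of CDK2 (chr19:29811898-29824308, plus strand), was at 11.3 and 11.5 RPKM in KD and 15.9 and 16.6 RPKM in WT. Here too the groups do not overlap, and the KD mean was 70.2% of WT (log2 change -0.48, SE 0.10; limma, adjusted p = 0.00874). CDC25A, the phosphatase that activates CDK2 (chr3:48157146-48188402, minus strand), was at 3.96 and 4.33 RPKM in KD and 7.62 and 5.87 RPKM in WT. The KD libraries lie close together and below both WT libraries, at 61.4% of the WT mean (log2 change -0.58, SE 0.13; limma, adjusted p = 0.0125).

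The other 4 regulators did not pass. CDK4 was at 90.7 and 84.6 RPKM in KD and 99.2 and 106 RPKM in WT (log2 change -0.23, adjusted p = 0.117). E2F1, the transcription factor, was at 22.3 and 20.9 RPKM in KD and 23.4 and 25.5 RPKM in WT (log2 change -0.17, adjusted p = 0.264). CCNE2, the second cyclin E, was the lowest of the G1/S genes, at 1.52 and 2.04 RPKM in KD and 1.97 and 1.83 RPKM in WT. CDK2 was at 13.6 and 13.2 RPKM in KD and 13.0 and 12.5 RPKM in WT (log2 change 0.06, adjusted p = 0.700). The cyclins that passed and the kinases that they bind thus differed in call, a difference that was not tested.

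**Figure D4:**
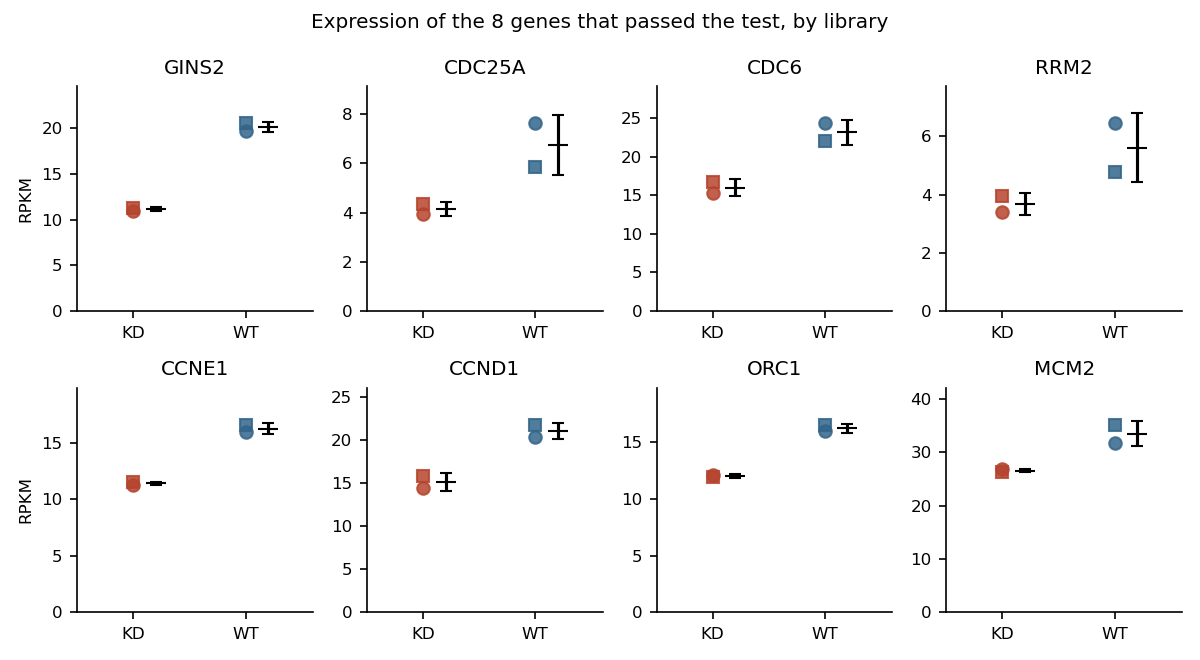
RPKM (vertical axis, from 0) of the 8 genes that passed the test, in KD (red) and WT (blue) libraries, with circles for replicate 1, squares for replicate 2 and the mean ± SD of each group as black marks. In each panel both KD libraries lie below both WT libraries, with the widest gap in GINS2 and the widest WT spread relative to the mean in CDC25A and RRM2.

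In 14 alternative settings, GINS2 passed in 14, CDC6, CCNE1 and CCND1 in 13, CDC25A in 12, RRM2 in 11, ORC1 in 10 and MCM2 in 6, and MCM2 lost its call under quantile and cyclic loess normalization. Without KD replicate 1, the library of least depth, the calls of CDC6, RRM2, CCNE1, CCND1, ORC1 and MCM2 were lost. The log2 changes of the 8 genes then ran from -0.78 in GINS2 to -0.33 in MCM2. Without WT replicate 1 the calls of CDC25A (adjusted p = 0.0513, in a range of 0.00176 to 0.0755 over the settings) and RRM2 (0.172, in a range of 0.00361 to 0.172) were lost. The 14 settings include a crossed pairing, a block that joins replicate 1 of each group with replicate 2 of the other. It was added after the data were seen, and all 8 genes passed in it. Exons on the opposite strand overlap 16 of the 48 genes, MCM2 (TPRA1 and AC023593.1), GINS2 (GSE1) and CCND1 (LTO1) among them. The use of strand in counting is not given in the sources used here.

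Of the 6 genes of mitotic entry, 0 passed, and the 2 B-type cyclins lay on either side of 0. CCNB1, cyclin B1, was at 103 and 96.6 RPKM in KD and 130 and 117 RPKM in WT, without overlap (log2 change -0.30, 95% interval -0.52 to -0.08; limma, adjusted p = 0.0511). CCNB2, cyclin B2, whose promoter is printed above, was at 80.1 and 78.3 RPKM in KD and 77.7 and 69.3 RPKM in WT (log2 change 0.11, 95% interval -0.11 to 0.33; limma, adjusted p = 0.461). CDK1, their kinase, CCNA2, cyclin A2, and FOXM1, a transcription factor of the G2/M genes, had log2 changes of -0.14, -0.14 and -0.06. CDC25C, the phosphatase that activates CDK1, was at 8.60 and 9.88 RPKM in KD and 7.71 and 8.30 RPKM in WT. Its groups do not overlap and its log2 change of 0.18 was the highest of the 48 genes, yet it did not pass (limma, adjusted p = 0.283). CDC25C and CDC25A, phosphatases of 1 family, thus had changes of opposite sign, and only that of CDC25A passed.

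Of the 5 mitotic kinases and partners, PLK1, AURKA, TPX2 and BIRC5 were lower in both KD libraries, a pattern in 27.3% of all genes tested, and 0 passed. PLK1, which acts at centrosomes and in mitotic entry, was at 54.0 and 52.1 RPKM in KD and 61.1 and 65.7 RPKM in WT (log2 change -0.25, adjusted p = 0.0867). AURKA, the centrosomal Aurora kinase, was at 40.0 and 39.9 RPKM in KD and 48.4 and 45.4 RPKM in WT (log2 change -0.23, adjusted p = 0.118). TPX2, its activator on the spindle, was at 37.5 and 45.0 RPKM in KD and 52.2 and 46.2 RPKM in WT (log2 change -0.25, adjusted p = 0.155). AURKB, the Aurora kinase of the chromosomal passenger complex, lay the other way, at 93.3 and 86.9 RPKM in KD and 79.2 and 82.2 RPKM in WT (log2 change 0.16, adjusted p = 0.260). BIRC5, or survivin, which belongs to that same complex, was at 23.9 and 24.8 RPKM in KD and 27.1 and 27.3 RPKM in WT (log2 change -0.16, adjusted p = 0.279).

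Of the 6 kinetochore and checkpoint genes, BUB1B came nearest to the threshold. BUB1B, the checkpoint protein BubR1, was at 13.3 and 15.9 RPKM in KD and 21.4 and 17.5 RPKM in WT, without overlap (log2 change -0.39, SE 0.13; limma, adjusted p = 0.0572). CDC20, the activator of the anaphase-promoting complex, was at 132 and 124 RPKM in KD and 139 and 151 RPKM in WT (log2 change -0.18, adjusted p = 0.213). BUB1 and TTK, checkpoint kinases, and CENPE and CENPF, kinetochore proteins, had log2 changes between -0.05 and 0.04, with overlapping groups.

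The 4 genes of motors and chromosomes did not separate KD and WT in any case. KIF11, the motor that pushes spindle poles apart, was at 11.2 and 14.2 RPKM in KD and 16.8 and 13.7 RPKM in WT (log2 change -0.25, adjusted p = 0.230). KIF20A, a motor of cytokinesis, TOP2A and MKI67, the proliferation marker Ki-67, had log2 changes of 0.02, 0.03 and 0.08. MKI67 was at 2.51 and 3.96 RPKM in KD and 3.19 and 2.72 RPKM in WT, so that the KD libraries enclose both WT libraries.

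The calls of BUB1B and CCNB1 depended on the setting. Both passed when genes were kept only at a mean of 5 RPKM or more, and with median-of-ratios scaling. This brings the G2/M count to 2 of 21 under median-of-ratios scaling, beside 813 of 10176 genes tested. Under the 5 RPKM filter it was also 2, beside 627 of 5723 genes tested, but of fewer than 21, since some G2/M genes lie below that level. BUB1B also passed without KD replicate 2, and both passed without WT replicate 2.

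In splicing, 7 events of 3 genes were listed (CDC25C with 4, CDC25A with 2 and RFC4 with 1), of 3768 events in 2166 genes. Each event gives the PSI, the share of reads that use an examined junction among competing junctions, and the table holds only events whose PSI varied among the libraries. No event is listed for the other 45 genes. None of the 7 passed limma's test (adjusted p under 0.05 and a difference of 10 percentage points or more, 0.107% of 3744 events tested), and the smallest adjusted p was 0.267. At an unadjusted p under 0.05 with that difference, 2 of 7 passed, beside 18.4% of events tested. The groups do not overlap in 5 of 7, beside 54.2% of events tested, and 2 pairs of events are mirror images that share reads. The read counts behind a PSI are unknown.

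CDC25C exon 3 (chr5:138329553-138329647, minus strand, hg38) had a lower PSI in both KD libraries than in either WT library. The exon is 95 bases long and coding in all 6 annotated transcripts that hold it, and 2 annotated transcripts skip it. Since 95 bases are 2 more than a whole number of codons, the 2 forms read on in different frames. They are printed from GENCODE v29 transcripts, with the exon in capitals and 30 bases on either side.
CDC25C with exon 3: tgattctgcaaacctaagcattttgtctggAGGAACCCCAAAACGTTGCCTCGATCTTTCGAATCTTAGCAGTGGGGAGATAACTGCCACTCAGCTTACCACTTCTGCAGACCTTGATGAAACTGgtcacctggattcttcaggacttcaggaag
CDC25C without exon 3: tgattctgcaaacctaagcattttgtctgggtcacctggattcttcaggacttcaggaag

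The PSI of the junction downstream of exon 3 was 57.1% and 55.3% in KD replicates 1 and 2, against 74.5% and 77.4% in WT replicates 1 and 2. The groups do not overlap, and the difference was -19.7 percentage points (SE 8.35, 95% interval -39.9 to 0.415; limma, adjusted p = 0.269). The PSI of the upstream junction was 66.7% and 62.0% in KD, against 77.0% and 82.1% in WT, a difference of -15.2 points (adjusted p = 0.309). Both junctions of the exon thus lay lower in both KD libraries without passing the test.

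A second CDC25C event is a choice between acceptors 4 bases apart, in the exon before (chr5:138331215-138331218). These 4 bases are in 3 annotated transcripts and coding in 1 of them. They are in capitals in the 30 bases printed.
CDC25C upstream acceptor: ctccaggcttgagCTAGgttttgtttttct

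The upstream acceptor had a PSI of 40.0% and 28.9% in KD, against 62.2% and 54.5% in WT, and the downstream acceptor had 60.0% and 71.1% in KD, against 37.8% and 45.5% in WT. The KD libraries lay below both WT libraries, by 23.9 percentage points on average (95% interval of the difference -45.9 to -1.94; limma, unadjusted p = 0.0372, adjusted p = 0.267). It is the event with the smallest p of the 7, and its mirror is the same measurement.

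CDC25A, whose level fell, has a choice between acceptors 3 bases apart (chr3:48183028-48183030, minus strand), which adds or leaves out 3 coding bases. The added bases are in capitals, with 30 bases on either side.
CDC25A upstream acceptor: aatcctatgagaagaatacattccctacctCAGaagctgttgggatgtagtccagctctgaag

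The PSI of the upstream acceptor was 68.0% and 83.3% in KD, against 63.9% and 80.4% in WT. Replicate 2 was high and replicate 1 low in both groups, and the groups overlapped (difference 3.56 points, 95% interval -21.6 to 28.7; limma, adjusted p = 0.862). RFC4 has 1 event, an upstream donor in the 5′ untranslated region (chr3:186806290-186806424), with a PSI of 19.9% and 23.2% in KD, against 30.7% and 38.6% in WT (difference -13.0 points, 95% interval -33.9 to 7.79; adjusted p = 0.373). Its groups do not overlap, and the RPKM of RFC4 was 24.0 ± 0.917 in KD and 24.5 ± 1.44 in WT (SD, n = 2 each).

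**Figure D5:**
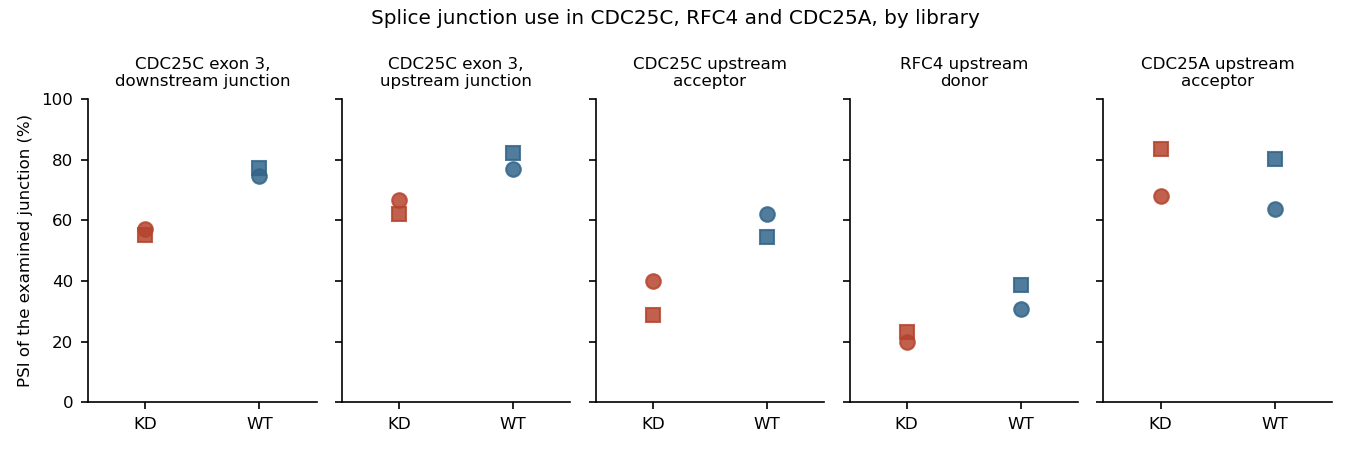
PSI (percent, vertical axis) of the examined junction of 5 events in CDC25C, RFC4 and CDC25A, in KD (red) and WT (blue) libraries, with circles for replicate 1 and squares for replicate 2; the 2 mirror events are left out. KD and WT do not overlap in the 3 CDC25C panels and in RFC4, and they overlap in CDC25A, and none passed the adjusted test.

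The wider pathway was read in 8 further lists. These too were chosen with earlier results of these data known, so they are no independent check of the G1/S list. Of their genes 138 were tested, with 14 lower (10.1%) and 4 higher (2.90%) in KD, beside 7.03% lower and 15.3% higher over all genes tested. Of 21 other origin and fork factors, 6 fell and 0 rose, with a median log2 change of -0.19, close to that of the G1/S list. MCMBP, which binds the MCM proteins, was at 14.5 and 14.9 RPKM in KD and 29.9 and 25.6 RPKM in WT (log2 change -0.87; limma, adjusted p = 0.000499). The origin recognition subunits ORC5, ORC6 and ORC3 had log2 changes of -0.69, -0.58 and -0.45 (adjusted p = 0.00430, 0.00440 and 0.0476). TIPIN, of the fork protection complex, and TOPBP1, a scaffold of origin firing and checkpoint signalling, had log2 changes of -0.53 and -0.42 (limma, adjusted p = 0.00983 and 0.0391). Together with ORC1, 4 subunits of the origin recognition complex thus fell, while ORC2 and ORC4 did not pass. Their log2 changes were -0.08 and -0.07, with overlapping groups (limma, adjusted p = 0.682 and 0.744).

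Of 23 other polymerase and clamp factors, 3 fell and 0 rose (median -0.12). They were POLE2, a subunit of the leading-strand polymerase (log2 change -0.40, limma, adjusted p = 0.0289), RPA2, of the complex that coats single-stranded DNA (-0.36, 0.0228), and CHAF1A, of the histone chaperone CAF-1 (-0.36, 0.0334). Of 10 genes of nucleotide supply, 2 rose and 2 fell. RRM2B, the ribonucleotide reductase subunit induced by p53, was at 2.20 and 2.69 RPKM in KD and 1.51 and 1.17 RPKM in WT (log2 change 0.56; limma, adjusted p = 0.0124), so RRM2 and RRM2B, alternative small subunits of 1 enzyme, changed in opposite directions. CTPS1, CTP synthase, rose (0.61, adjusted p = 0.00221), and NME1, a nucleoside diphosphate kinase, and DTYMK, thymidylate kinase, fell (-0.36 each, adjusted p = 0.0184 and 0.0460).

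Of 7 CDK inhibitors and pocket proteins tested, only CDKN1A rose (14.3%), beside 15.3% of all genes tested. CDKN1A, the inhibitor p21, was at 23.4 and 21.9 RPKM in KD and 12.6 and 14.8 RPKM in WT (log2 change 0.69, SE 0.11; limma, adjusted p = 0.00218). CDKN2A and CDKN2B are not listed in the table, and CDKN1C was below the level tested. Of 8 checkpoint kinases and partners, only RAD9A, of the checkpoint clamp, rose (12.5%), beside the same 15.3%. RAD9A was at 8.17 and 7.40 RPKM in KD and 4.55 and 5.02 RPKM in WT (log2 change 0.60; limma, adjusted p = 0.00477).

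Of 13 other cyclins, CDKs and regulators tested, 0 passed (limma; 0 also at an unadjusted p under 0.05; median -0.08). Of 14 E2F, DREAM and MYB-MuvB factors, MYBL2, which encodes B-MYB, fell (log2 change -0.32; limma, adjusted p = 0.0442; median of the list -0.05). Of 42 other mitotic genes, 2 fell and 0 rose, with a median of -0.06, the same as in the G2/M list. They were HJURP, the chaperone of centromeric CENP-A, at 25.2 and 23.5 RPKM in KD and 36.6 and 37.9 RPKM in WT (log2 change -0.59, adjusted p = 0.00237), and UBE2C, a ubiquitin-conjugating enzyme of the anaphase-promoting complex (log2 change -0.30, adjusted p = 0.0345). Genes that fell thus made up 29.6% of the G1/S list, 28.6% of the other origin and fork factors and 13.0% of the other polymerase and clamp factors. They made up 20% of nucleotide supply, where 20% rose beside 15.3% of all genes tested, and 7.14% of the E2F, DREAM and MYB-MuvB factors. The share was 0% in the G2/M list and 4.76% in the other mitotic genes, beside 7.03% of all genes tested. It was also 0% in the other cyclins and regulators, the CDK inhibitors and pocket proteins and the checkpoint kinases.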

How the data were processed

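The expression values that the authors deposited were taken as RPKM, a unit inferred from the values and not written in the file. PSI was deposited by the authors as a fraction between 0 and 1. Of protein-coding genes, 17 of 980 with a single exon and 14211 of 18971 with several are in the table, so the RPKM appear to rest on junction reads. Per the submitters' processing notes, STAR 2.6.1 and the build hg38 were used. Neither the counter nor the splicing caller is named in the sources used here. Symbols came from a table of gene IDs.

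Both tables were tested with limma 3.58.1 in R 4.3.3 (two-sided, empirical Bayes, with a mean trend for expression and none for PSI, no covariate), over 10182 genes whose mean reached 1 RPKM in a group and 3744 events with 4 values. The pseudocount was 1. The fits were tested on simulated data. The members and lists were chosen with earlier results of these data known. Genes named in full were RBM10 and members past the test or with a PSI event, with up to 6 others of each list by size of change, and genes past the test in the pathway lists. Role groups only order the text. The rest of the 48 are given as values. Other normalizations, filters, pseudocounts, omitted replicates, a replicate block and, after the data were seen, a crossed replicate block were tried. Depth is known only relative to 1 library.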

Additional observations from a re-analysis of the deposited data

How the results depend on the processing

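In every setting run, 0 of the 48 genes passed as higher in KD. Without a filter on low values, 5 genes fell (all G1/S) and 5 pathway genes fell, beside 322 of all 17041 genes. Keeping means of 5 RPKM or more gave 2 G2/M genes lower, beside 627 of 5723 genes tested, and a G1/S median log2 change of -0.2264. Median-of-ratios scaling gave 2 G2/M genes lower, beside 813 of 10176, and a G1/S median of -0.2263. The G1/S median was -0.2278 under quantile normalization, against -0.1993 in the main fit. In these settings, in the same order, the G2/M median was -0.1352, -0.08572 and -0.1111, against -0.06037 in the main fit. The medians over all genes tested were -0.0313, 0.000189 and -0.0424, against 0.0232. Medians under the 5 RPKM filter cover only the members that reach that level. With 1 replicate left out, which leaves a lone sample assumed to vary like the other group, 3 to 8 genes fell, 3 to 8 of G1/S, 0 to 2 of G2/M and 6 to 12 of the pathway lists. Medians then ran from -0.1912 to -0.1044 over all 48, from -0.2289 to -0.2010 in G1/S and from -0.1713 to 0.01994 in G2/M. With promoter windows before the start only, 0% of G2/M promoters held an E2F word. Of all genes that passed in either direction, 52.5% were higher in KD under quantile normalization, against 68.5% in the main fit. The cause of these shifts was not tested.

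The labels give replicate numbers and no pairing across groups. Deviations of same-numbered libraries from their group means correlated negatively, at r = -0.444 over 10182 genes. Each library thus varied more like the differently numbered library of the other group, and the cause was not tested. With a replicate block, 6 of the 8 genes passed, MCM2 and ORC1 did not, and 6 pathway genes fell, beside 438 of 10182 genes tested. The crossed pairing, added after seeing the data, gave 21 genes lower (14 G1/S, 7 G2/M), 34 pathway genes and 1730 of all 10182 tested. No PSI event of the 48 genes passed in any setting. Groups of 2 and unknown read counts behind PSI limit what could be detected.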

Other observations

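Splicing events of the wider pathway lists numbered 40 in 25 genes, and 0 passed limma's adjusted test, while 7 (17.5%) had an unadjusted p under 0.05 and a difference of 10 points or more, beside 18.4% of all events tested. The events below are given as values. POLE2, the polymerase subunit whose level fell, has a cassette exon with a lower PSI in both KD libraries. The PSI of a junction of that exon was 53.8% and 49.1% in KD, against 73.1% and 77.5% in WT (difference -23.8 points, limma, adjusted p = 0.259). In RAD9A, whose level rose, the PSI of a retained intron was 41.5% and 46.0% in KD, against 24.1% and 19.6% in WT (difference 21.9 points, adjusted p = 0.267). In POLD4, a small subunit of the lagging-strand polymerase, the PSI of a junction into a retained intron was 55.0% and 39.5% in KD, against 13.2% and 15.2% in WT (difference 33.1 points, adjusted p = 0.259). In BUB3, a checkpoint protein, an acceptor had a PSI of 73.6% and 72.5% in KD, against 53.5% and 54.1% in WT (difference 19.3 points, adjusted p = 0.270). These genes were chosen after their values were seen.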
